A study of Mus musculus with 8 samples.

Results

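The genes described here are 129 of the 19906 genes in the table, namely those that still carry a RIKEN clone name beginning with 4921, 4922, 4930, 4931, 4932 or 4933 and ending in Rik. The rule used the name and no measured value, and 74 begin with 4930, 26 with 4933, 12 with 4921, 11 with 4931, 5 with 4932 and 1 with 4922. Of these, 124 passed the filter on low counts and were tested, and the other 5 had few counts in every library. Testes from 8 mice on the C57BL/6 background, all 2 months old, were sequenced. Of these mice 4 were labelled Tmem232-/-, in which a fragment of the gene had been removed with CRISPR-Cas9, and 4 were labelled Tmem232+/+, with 1 library from each mouse. The comparison asks which transcripts of the whole testis differ when Tmem232 is disrupted. Apart from the deletion, no agent or other allele distinguished the groups in the labels.

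The RIKEN clone names come from the sequencing of full-length mouse cDNAs, and the number at the front stands for the tissue library in which a clone was found. Libraries with these numbers were made from adult testis, so many of the genes were first seen as transcripts of male germ cells. A gene keeps its clone name until a function or a relation is assigned, and most of the genes below therefore have no agreed role. Many testis-specific transcripts appear only after meiosis, in round spermatids and then in elongating spermatids, where the acrosome and the tail are built and histones give way to protamines.

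Tmem232 (Entrez ID 381107) was examined first, as the gene that the labels refer to. Its level, in counts per 1000000 counts after TMM normalization (CPM), was 147.6, 131.6, 123.1 and 122.1 in replicates 1 to 4 labelled Tmem232-/-. In replicates 1 to 4 labelled Tmem232+/+ it was 111.2, 106.3, 108.4 and 109.9. All libraries labelled Tmem232-/- lay above those labelled Tmem232+/+, by 0.27 on the log2 scale with a standard error of 0.0721 (adjusted p = 0.0335, edgeR quasi-likelihood test, 0.029 in the exact two-sided permutation test, the smallest p that 4 against 4 libraries allow). In edgeR, omitting Tmem232-/- replicate 1, Tmem232-/- replicate 2, Tmem232+/+ replicate 2 or Tmem232+/+ replicate 4 ended this call, and the adjusted p was between 0.0858 and 0.0892 for the Tmem232 log2 fold change. The count was thus not lower in the libraries labelled Tmem232-/-. Since it is given per gene and not per exon, it does not show whether the fragment was absent and cannot check the labels. Every direction below is that of the libraries as labelled. The totals lay between 15428421 and 16350871 counts per library. Replicate 3 labelled Tmem232+/+ stood apart from the other libraries of its label, with a chi-square per gene between 14.8 and 23.6 against 3.82 to 6.65 among the others. Among the libraries labelled Tmem232-/- it was 3.65 between replicates 2 and 3 and 8.35 to 13.9 in the pairs with replicate 1 or 4. Between the labels it ran from 14.62 to 39.15. Replicate 3 labelled Tmem232+/+ and replicate 4 labelled Tmem232-/- gave 17.99, within the range of the former library with its own label.

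Some testis markers differed between the labels, mainly those of spermatids. Over all tested genes 10.3% were higher and 1.46% lower. In the list of elongating spermatid markers 12 of 12 tested genes were higher in the libraries labelled Tmem232-/-, with a median log2 fold change of 2.18, and their summed level was 3056 to 4009 CPM there against 1703 to 1950 CPM. The largest part of these sums was Odf2, at 1587 to 1771 CPM against 1230 to 1510 CPM, which rose by only 0.31 on the log2 scale. In the list of round spermatid markers 8 of 12 were higher and 1 was lower (median log2 fold change 1.05, 1844 to 2060 CPM against 1486 to 1727 CPM). Of the spermatogonial markers 3 of 10 were lower, and of the spermatocyte markers 1 was higher and 1 lower among 12. Of the peritubular myoid markers 2 of 5 were lower. No marker of Sertoli cells, Leydig cells, macrophages, endothelial cells, red blood cells or epididymis passed the test (3 of the 6 epididymal genes could be tested), and no listed marker was at 0 in all libraries. For the Leydig list the median was 0.46 on the log2 scale, with 402.4 to 570.8 CPM in the libraries labelled Tmem232-/- against 254.0 to 436.4 CPM, and for the red blood cell list it was -0.63, with 150.2 to 596.0 CPM against 304.6 to 595.1 CPM. The medians of the Sertoli, macrophage, endothelial and epididymal lists lay between -0.25 and 0.09. The epididymal gene Crisp1 was at 27.04 and 9.943 CPM in replicates 1 and 3 labelled Tmem232+/+ and at 5.524 CPM in replicate 1 labelled Tmem232-/-. In the other libraries it was between 0 and 0.861 CPM. In RNA from whole testis, fewer or more cells of a type and less or more RNA per cell cannot be told apart. The part of the spermatid and other markers in the results below was not tested.

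Of the 124 tested members, 61 were higher in the libraries labelled Tmem232-/- at an adjusted p under 0.05, which is 49.2% of the members, against 10.3% of all 15787 tested genes. A rise of at least 2-fold was seen for 41 of them (33.1%, against 5.23% of all tested genes). Another member, 4933412E24Rik, was lower (0.806%, against 1.46% of all tested genes). The median log2 fold change of the tested members was 0.44, with quartiles at 0.01 and 1.26, and that of all tested genes was -0.05. For 62 members every library labelled Tmem232-/- was above every library labelled Tmem232+/+, and for 1 member every one was below. Over all tested genes these shares were 11.8% and 6.88%.

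**Figure D1:**
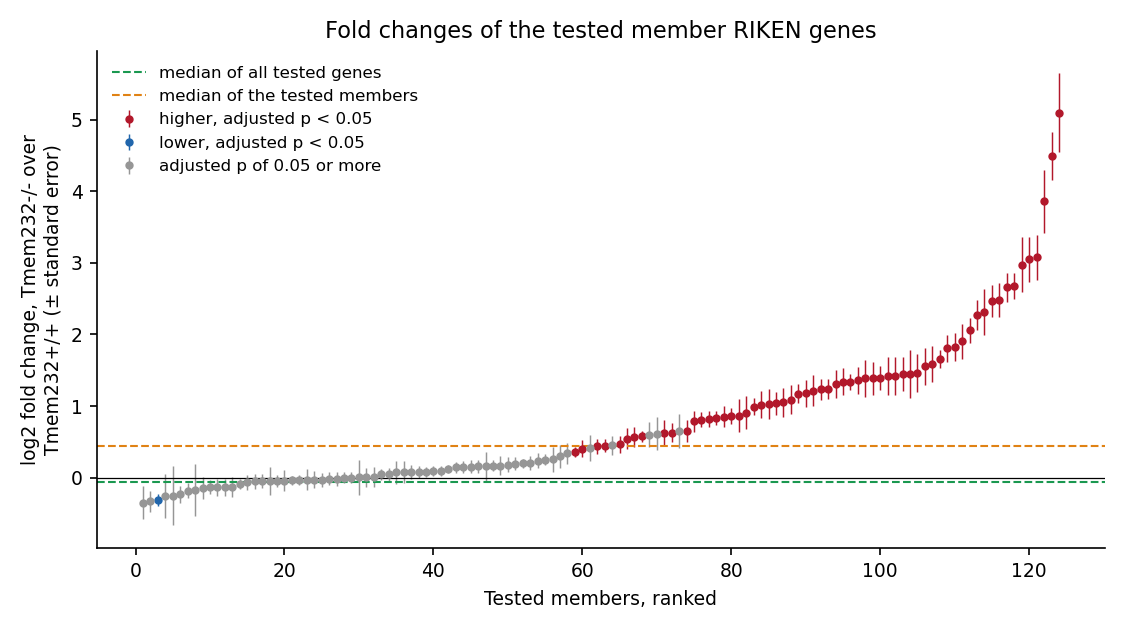
Log2 fold change of each of the 124 tested members, libraries labelled Tmem232-/- over those labelled Tmem232+/+, in rank order, with bars for the standard error of the edgeR fit. Red marks the 61 members called higher, blue the 1 called lower and grey the others, and the dashed lines are the medians of the members (0.44) and of all tested genes (-0.05).

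Genes with a RIKEN name of another kind gave a reference. Names that begin with 1700 also come from adult testis, and 62 of 95 such tested genes were higher (65.3%), 41 of them by at least 2-fold, with a median log2 fold change of 0.77 and none lower. Among the remaining RIKEN genes, from other clone libraries, 14 of 178 were higher (7.87%) and 1 was lower, with a median of -0.05. The members were thus closer to the 1700 genes than to the other RIKEN genes in the share called higher, the share at least 2-fold higher and the median, a difference that is described and was not tested.

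Members from each clone library but the smallest were among those that rose. Of the 12 genes beginning with 4921, 9 were higher, with a median log2 fold change of 1.18. Of the 69 tested genes beginning with 4930, 33 were higher (median 0.45), and of the 26 beginning with 4933, 11 were higher and 1 was lower (median 0.23). Among those beginning with 4931 and 4932, 5 of 11 and 3 of 5 were higher, and the 1 gene beginning with 4922 was not called. Of the 61 members called higher, the levels of 4933402D24Rik and 4930524N10Rik overlapped between the labels, and those of the other 59 did not.

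Among members that were called, had at least 1 CPM on average over the 8 libraries and did not overlap between the labels, the 10 with the largest rises are given first. Their separation between the labels is thus part of how they were chosen. The largest was 4931408C20Rik (Entrez ID 210940, chr1:26681801-26687460, minus strand, GRCm38), which the deposited annotation places in the FAM75 family. Its level was 10.9, 7.53, 5.38 and 8.85 CPM in replicates 1 to 4 of the first label and 0.312, 0.121, 0.570 and 0.430 CPM in the same order for Tmem232+/+. The lowest library of the first label was thus well above the highest of the second, and the log2 fold change was 4.49 with a standard error of 0.336 (adjusted p = 2.11e-05, edgeR). The counts behind the low levels were 5, 2, 9 and 7. The gene thus passed the filter on low counts only through the libraries labelled Tmem232-/-. Over the 17 alternative fits its log2 fold change lay between 1.42 and 4.82, so its rank is that of the edgeR fit described here.

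4921517D22Rik (chr13:59687402-59694103, minus strand) carries a core histone domain in the annotation. Its level was 3.79, 3.14, 2.47 and 4.49 CPM against 0.374, 0, 0.380 and 0.184 CPM. A count of 0 in a library allows a level of up to 3 counts, or 0.186 CPM at the mean size of those libraries. All libraries of the first label were again higher, by 3.86 on the log2 scale with a standard error of 0.437 (edgeR, adjusted p = 0.00012). Over the 17 alternative fits this log2 fold change lay between 1.18 and 4.25. Like 4930544D05Rik and 4930567H17Rik below, 4921517D22Rik passed the filter on low counts only through the libraries labelled Tmem232-/-. 4921530L21Rik (chr14:95881225-95882780, plus strand), described in the annotation as a testis highly expressed protein and named Spertl in RefSeq, had 11.6, 9.23, 7.40 and 14.9 CPM against 0.685, 0.908, 2.22 and 1.29 CPM. It rose by 3.08 on the log2 scale (standard error 0.318).

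4933406M09Rik (chr1:134385940-134391518, plus strand) was annotated with the conserved region of N-acetylglucosaminyltransferase IV, an enzyme family that adds a branch to N-glycans, and RefSeq names it Mgat4f. Its level was 13.8, 11.1, 8.66 and 12.9 CPM against 1.495, 0.727, 2.60 and 0.798 CPM, a log2 fold change of 3.05 (standard error 0.314). 4930544D05Rik (chr11:70615711-70616892, plus strand) had 4.59, 4.58, 2.02 and 5.53 CPM against 0.312, 0.484, 0.950 and 0.369 CPM. Its log2 fold change was 2.97 (standard error 0.385), and it lies across Chrne on the opposite strand. The library kit does not mark strand, so reads from the overlap of this pair cannot be told apart.

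The next rises were those of proteins annotated only with domains of unknown function, and their levels were higher. 4921507P07Rik (chr6:50573302-50596913, minus strand), the homolog of human C7orf31, had 46.9, 44.6, 32.4 and 50.2 CPM against 6.17, 5.57, 9.37 and 6.08 CPM, or 6.40-fold. 4930407I10Rik (chr15:82059151-82066538, plus strand) had 57.8, 54.6, 41.7 and 55.0 CPM against 8.10, 5.39, 12.3 and 7.37 CPM, or 6.31-fold. In both, replicate 3 labelled Tmem232+/+ was the highest of its label and replicate 3 labelled Tmem232-/- the lowest of its own. The adjusted p was 1.62e-05 and 2.11e-05 (edgeR).

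4921509C19Rik (chr2:151460325-151476268, minus strand) encodes sperm motility kinase X, a member of a family of serine/threonine kinases of sperm. It had 19.1, 17.4, 11.8 and 17.8 CPM against 2.61, 1.61, 4.06 and 3.52 CPM, or 5.59-fold (adjusted p = 4.92e-05). 4930435E12Rik (chr16:38812204-38828772, plus strand), named Tex55 in RefSeq, had 25.8, 19.2, 17.8 and 22.3 CPM against 3.37, 2.30, 5.83 and 3.93 CPM, or 5.52-fold. The X-linked 4930567H17Rik (chrX:70393901-70394740, minus strand), with a single exon, had 4.57, 2.60, 3.82 and 3.35 CPM against 0.598, 0.315, 1.20 and 0.733 CPM, or 4.96-fold. The counts of 4921509C19Rik were not whole in 7 libraries and those of 4930567H17Rik in all 8. Such counts can arise where reads are shared between genes or transcripts, which was not tested here. The levels of both may thus be less certain than those of members with whole counts.

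**Figure D2:**
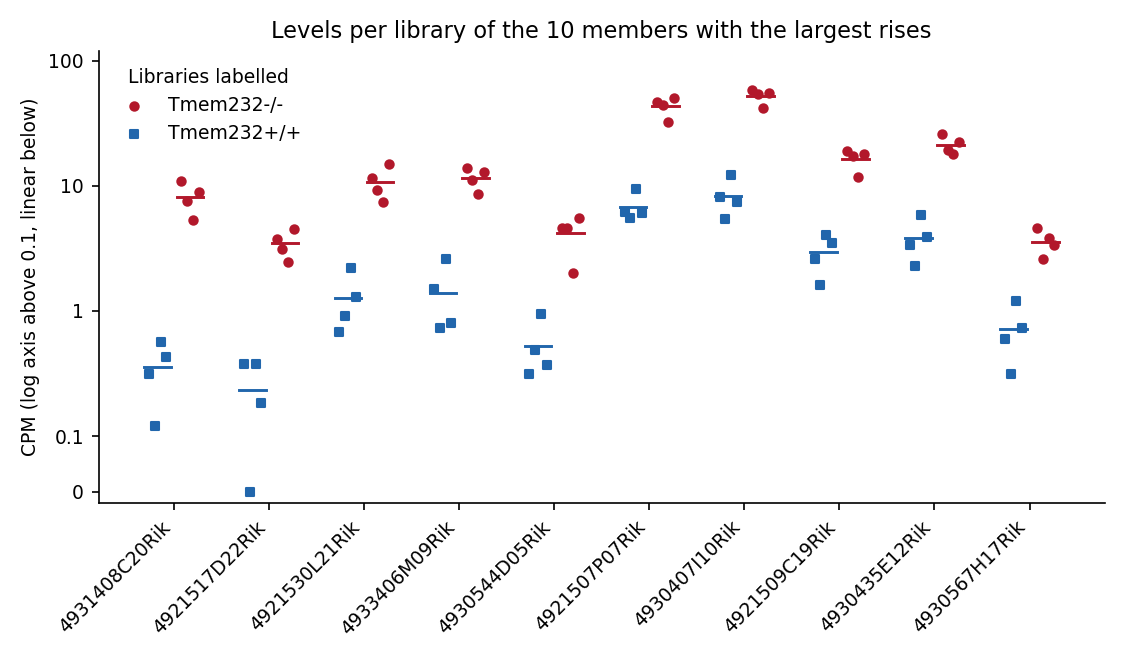
Level of the 10 named members with the largest rises in each library, in CPM on an axis that is logarithmic above 0.1 and linear below. Circles are the 4 libraries labelled Tmem232-/- and squares the 4 labelled Tmem232+/+, lines are means, and in these genes, chosen for labels that do not overlap, the lowest circle of 4931408C20Rik is at 5.38 CPM and its highest square at 0.570 CPM.

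Transcripts with almost no counts in the libraries labelled Tmem232+/+ were also present. 4933402N03Rik (chr7:131138347-131146283, minus strand) had 25, 23, 13 and 22 counts in replicates 1 to 4 of the first label against 0, 1, 0 and 1. The ratio of the summed counts, 83 against 2, was 42.6 after normalization, with a 95% interval of 11.4 to 357 (exact binomial method). This interval covers counting error alone. Its adjusted p was 8.97e-05 in edgeR, but it passed the filter on low counts only through the libraries labelled Tmem232-/-. Its fitted log2 fold change of 5.10, the highest among the members, depends on the prior count. Over the 17 alternative fits it lay between 1.16 and 5.54. 4930402F06Rik, annotated as a glycosyltransferase of family 6, was singled out after its values were seen. It had 13, 18, 10 and 17 counts against 0, 2, 3 and 0, a ratio of 11.9 with an interval of 4.82 to 38.0, and was among the 5 members left out by the filter. The other 4 of these, 4930401G09Rik, 4930432M17Rik, 4930447A16Rik and 4930578C19Rik, had between 0 and 11 counts in any library, and their genotypes overlapped.

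4933412E24Rik (chr15:60014866-60016618, minus strand), a single-exon gene annotated as a homolog of human CXorf49, was the 1 member called lower. Its level was 36.3, 32.5, 34.6 and 34.1 CPM in the libraries labelled Tmem232-/- and 40.9, 39.7, 48.1 and 42.1 CPM in those labelled Tmem232+/+. The labels did not overlap, and the difference was -0.31 on the log2 scale with a standard error of 0.0783 (edgeR, adjusted p = 0.0228). It lost its call in 8 of 17 alternative fits. In 6 of these a library was omitted, namely Tmem232-/- replicate 2, 3 or 4, or Tmem232+/+ replicate 1, 3 or 4. Over all 17 fits the adjusted p lay between 0.0152 and 0.0832, and the log2 fold change between -0.35 and -0.22.

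The members that were most abundant on the FPKM scale, which corrects for transcript length, did not pass the test in the fit described above. 4922502D21Rik, with a C-type lectin domain and named Clec2m in RefSeq, was the most abundant, at 669 ± 68.1 FPKM for the label Tmem232+/+ and 734 ± 43.7 FPKM for Tmem232-/- (SD, n = 4 each). Its levels of 1102, 927, 939 and 1022 CPM overlapped with 880, 804, 1039 and 873 CPM (adjusted p = 0.337, edgeR). 4930453N24Rik, the homolog of human C3orf38, had 341 ± 30.9 FPKM and came closest to the threshold. Its levels of 528.6, 468.6, 465.3 and 495.9 CPM did not overlap with 408.2, 368.9, 460.7 and 405.4 CPM, but the difference of 0.25 on the log2 scale had an adjusted p of 0.0662. It was called in 3 of 17 alternative fits (adjusted p from 0.00593 to 0.171), and 4922502D21Rik in 1, without replicate 3 labelled Tmem232+/+ (adjusted p = 0.048 in edgeR). The next in order were 4930544G11Rik, a Ras family protein (239 ± 25.5 FPKM), 4933415F23Rik, an inhibitor of protein phosphatase 1 (216 ± 15.2 FPKM), and 4933402N22Rik, of the Takusan family (177 ± 44.6 FPKM). They were followed by 4933416C03Rik, named Taf7l2 and related to a subunit of the general transcription factor TFIID (160 ± 4.93 FPKM), 4930504O13Rik, a Ly-6 domain protein (125 ± 18.1 FPKM), and 4931417E11Rik, with the domain of a JNK1-associated membrane protein (80.2 ± 10.6 FPKM). From 4930544G11Rik to 4933416C03Rik each mean lay within the larger SD of the pair from the next, while the steps above and below were larger. These 6 genes differed between the labels by -0.05 to 0.15 on the log2 scale, with adjusted p between 0.273 and 0.929. All 8 libraries of 4933402N22Rik had counts that were not whole.

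The median level of the members was 10.1 FPKM in the libraries labelled Tmem232+/+, against 8.89 FPKM for all tested genes and 4.64 FPKM for all genes of the table, and 116 of 129 members reached 1 FPKM. As a group they took up 0.686% to 0.762% of all FPKM in the libraries labelled Tmem232+/+ and 0.862% to 0.944% in those labelled Tmem232-/-. The calls were unevenly spread over these levels. When the tested members were ordered by their mean FPKM over all 8 libraries, 23 of 41 were higher in the third with the lowest levels (0.408 to 7.49 FPKM, 56.1%) and 24 of 41 in the middle one (7.70 to 20.1 FPKM, 58.5%). At the highest levels (20.4 to 702 FPKM) 14 of 42 were higher (33.3%), with a median log2 fold change of 0.16. Among all tested genes at the same levels the shares were 9.33%, 11.5% and 11.5%, so the members exceeded this background at each level.

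**Figure D3:**
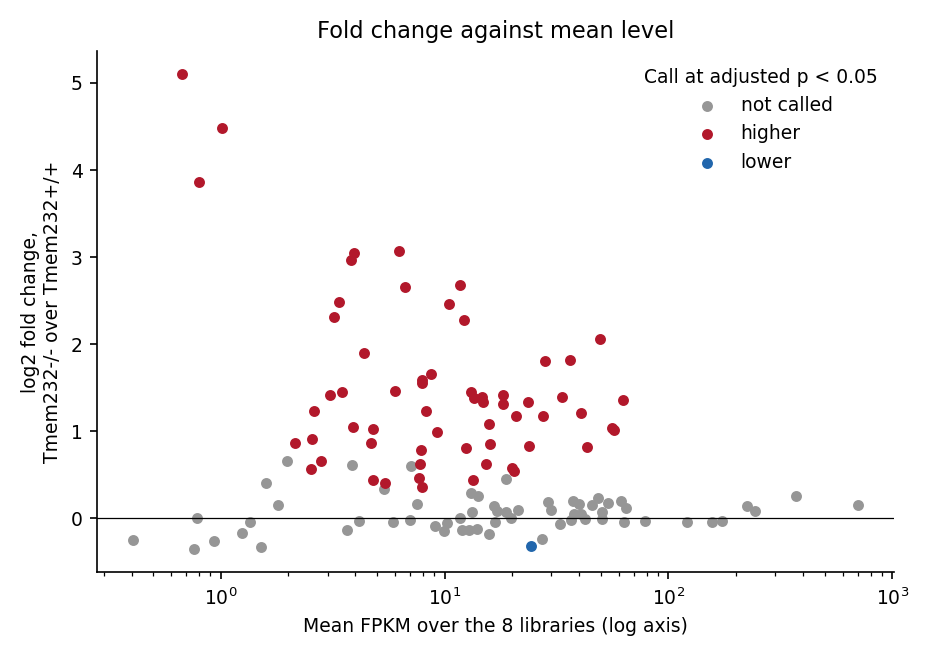
Log2 fold change of the 124 tested members, libraries labelled Tmem232-/- over those labelled Tmem232+/+, against the mean FPKM over the 8 libraries on a log axis. Red points were called higher (61), blue lower (1) and grey neither, and the 8 points farthest to the right, from 78.5 to 702 FPKM, lie between -0.05 and 0.25.

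A few members have a role that is known or can be read from the protein. 4933405O20Rik (chr7:50599190-50600528, plus strand) encodes a probable gamma subunit of the mitochondrial NAD-dependent isocitrate dehydrogenase, an enzyme of the citric acid cycle. Among the 8 members named for their role it was the 1 that passed the test. Over all tested genes 10.3% were higher, so this count is not read as a result about these members. Members named above for their rise, such as 4921509C19Rik, were not among these 8. 4933405O20Rik had 40.8, 33.9, 31.2 and 29.4 CPM against 14.6, 11.8, 16.7 and 16.95 CPM, and the labels did not overlap. The rise was 2.26-fold (log2 fold change 1.17, standard error 0.135, adjusted p = 0.000132, edgeR). It is a single-exon gene inside Nell1 on the same strand, and the authors' counting of such pairs is not given in the sources used here.

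The other 7 of these members did not pass the test. 4930447C04Rik, or Six6os1, a part of the synaptonemal complex that joins homologous chromosomes in meiosis, had 61.03, 44.6, 52.4 and 52.5 CPM against 50.8, 65.2, 72.6 and 58.4 CPM (log2 fold change -0.23, adjusted p = 0.258). 4933427D14Rik, the centriolar satellite protein moonraker, had 83.8 ± 3.19 CPM against 78.5 ± 5.03 CPM (SD, n = 4 each, adjusted p = 0.417 in edgeR). 4930402H24Rik, a homolog of C20orf194 with a role in the assembly of axonemal dynein, had 112.1 ± 6.81 CPM against 105.8 ± 4.44 CPM (adjusted p = 0.47 in edgeR). 4932438A13Rik, the large lipid transfer protein KIAA1109, had 311.8 ± 49.2 CPM against 310.6 ± 54.9 CPM. 4931406P16Rik, or Garre1, 4933434E20Rik, a homolog of C1orf43, and 4931406C07Rik, the ester hydrolase C11orf54, differed by -0.13, 0.17 and -0.04 on the log2 scale, with adjusted p of 0.608, 0.209 and 0.776 (edgeR).

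Families were formed from the domains that the deposited annotation gives to 2 or more members, and these were grouped after the values had been seen. Of all tested members 49.2% were higher, and of all tested genes 10.3%. The counts in these small families, here and in the next paragraph, are thus not read as results about a family. Both kinase members were higher, 4921509C19Rik above and 4930488N24Rik, which matches sperm motility kinase 2A, by 3.01-fold (27.4 ± 5.17 against 9.12 ± 3.84 CPM, SD, n = 4 each, adjusted p = 0.00103 in edgeR). 4930488N24Rik had counts that were not whole in 7 libraries. Of 2 glycosyltransferases of family 6, 4930568D16Rik rose 2.67-fold (4.49 ± 0.949 against 1.68 ± 0.679 CPM), and 4930402F06Rik, whose counts are given above, was left out by the filter. The claudin-related 4921511M17Rik and 4930524N10Rik, named Samt1b and Samt2b in RefSeq, rose 2.04-fold and 1.54-fold, although the levels of 4930524N10Rik overlapped between the labels. The latter call was kept in 11 of 17 alternative fits and was lost on omitting Tmem232-/- replicate 1, 2 or 3 or Tmem232+/+ replicate 2, 3 or 4 (adjusted p 0.0641 to 0.129 in edgeR). The counts of 4921511M17Rik were not whole in any of the 8 libraries.

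Other families were split. Of 4 members with the N-terminal motif of Ras guanine nucleotide exchange factors, 4930474N05Rik and 4930596D02Rik, both on chromosome 14, rose 2.93-fold and 2.67-fold. 4930449I24Rik (log2 fold change 0.60, adjusted p = 0.051) and 4933421I07Rik (0.26, adjusted p = 0.392) did not pass the test. Of 2 X-linked members related to a regulatory subunit of protein phosphatase 4, 4932429P05Rik rose 1.82-fold (17.7 ± 2.49 against 9.76 ± 0.744 CPM, SD, n = 4 each). The other, 4930415L06Rik, had 1.93 ± 0.378 against 1.92 ± 0.581 CPM. Of 5 ankyrin repeat members, 4930467E23Rik and 4931440F15Rik rose, by 0.44 and 0.36 on the log2 scale, the former with counts that were not whole in 8 libraries. When 1 library was omitted, 4930467E23Rik lost its call without Tmem232-/- replicate 2 or Tmem232+/+ replicate 4 (adjusted p 0.0512 and 0.0639 in edgeR), and 4931440F15Rik kept its call. None of 3 Takusan members and neither of 2 MAGE members, 4930550L24Rik and 4933402E13Rik, passed the test (adjusted p between 0.308 and 0.987, edgeR), and the counts of the Takusan members were not whole in any library. The remaining shared domains gave small and mixed groups. Both members with a sterile alpha motif rose, 4930503B20Rik by 3.53-fold and 4933403O08Rik by 1.48-fold. Of 5 members with a PH-like domain, 4933403O08Rik and 4932429P05Rik were called. Of 2 members related to L1 elements 4930512M02Rik rose (1.80-fold, counts not whole in 4 libraries), and of 2 with a papain-like fold 4930444G20Rik rose (1.46-fold, counts not whole in 8 libraries). The latter call was lost on omitting Tmem232-/- replicate 1 or 2 or Tmem232+/+ replicate 1, 2 or 4 (adjusted p 0.0583 to 0.0816 in edgeR). 4921501E09Rik rose 1.99-fold, and neither 4930595M18Rik nor 4930522L14Rik, which share a zinc finger domain with it, was called. The pair with a DUF3496 domain, 4921524L21Rik and 4932414N04Rik, was not called.

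A few further rises were singled out after the values had been seen. 4930578I06Rik, annotated as a subunit of the flagellar C1a complex of the central apparatus, had 82.6, 61.1, 51.7 and 68.0 CPM against 29.8, 22.8, 43.0 and 34.3 CPM, a rise of 2.03-fold (adjusted p = 0.00283, edgeR). 4931409K22Rik, named Iqca1l and with an IQ motif and an AAA ATPase domain, had 81.1, 64.7, 54.8 and 59.0 CPM against 22.5, 18.04, 36.9 and 27.4 CPM, or 2.48-fold. In both, replicate 3 was the highest library labelled Tmem232+/+ and the lowest labelled Tmem232-/-, yet the labels did not overlap. 4933411K16Rik, a homolog of human C10orf62, had the largest rise among the 42 members at the highest levels, with 102.4, 107.7, 83.8 and 100.6 CPM against 24.5, 14.7, 29.6 and 26.2 CPM, or 4.16-fold. It lies within Hoga1 on the same strand.

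The calls were also counted by what the annotation knows of the protein. Over all tested genes 10.3% were higher, and their shares by kind of domain were not counted. Of 36 members with only uncharacterised domains, 22 were higher (61.1%), 17 of them by at least 2-fold, and 1 was lower. Of 64 tested members with a named domain 28 were higher (43.8%), and of 24 without any domain 11 (45.8%). 4930453N24Rik, which was not called, was counted with the named domains although its annotated domain is one of unknown function. Of the members on the X chromosome 12 of 18 tested were higher (66.7%), with a median log2 fold change of 0.72, against 49 of 106 elsewhere (46.2%). Over all tested genes these shares were 20.5% on the X chromosome and 9.84% elsewhere. The X-linked rises ran from 4930567H17Rik, given above, and 4930453H23Rik (3.74-fold) to 4933403O08Rik (1.48-fold). The call of 4933403O08Rik was lost on omitting replicate 1, 2 or 3 of the label Tmem232-/- (adjusted p 0.0576 to 0.0635 in edgeR). These differences between groups of members are descriptions and were not tested.

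**Figure D4:**
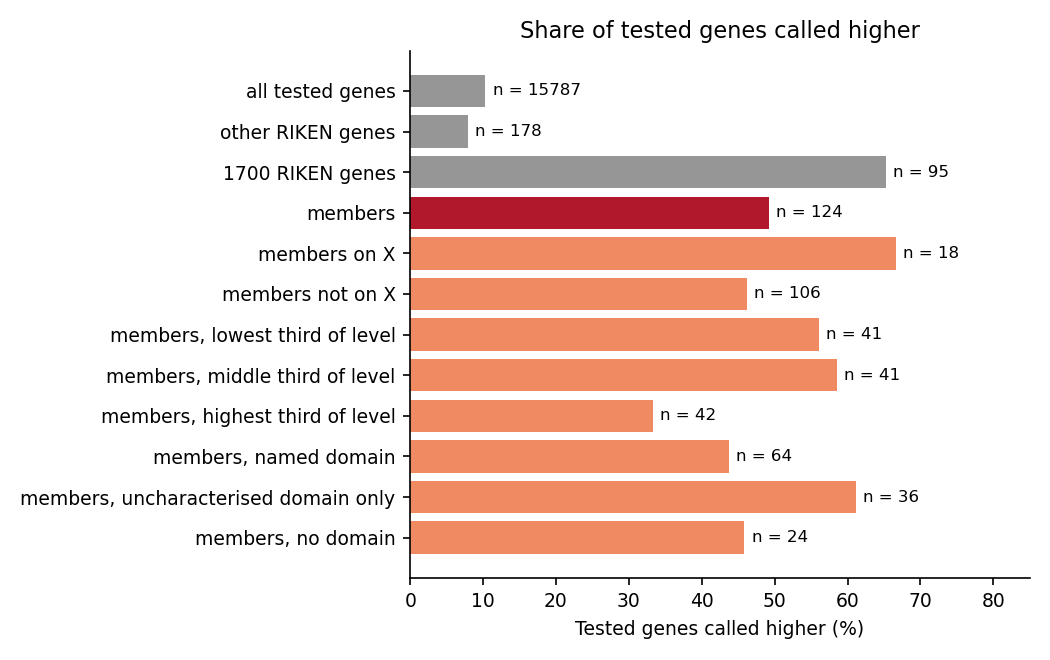
Share of tested genes called higher in the libraries labelled Tmem232-/-, in percent, for all tested genes, the other RIKEN genes, the RIKEN genes beginning with 1700, the members and groups of the members, with the number tested beside each bar. The members stand at 49.2% against 10.3% of all tested genes, and within the members the members at the highest levels stand at 33.3%.

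The members also had simple gene models. Of 114 members matched to GENCODE M21, 14 had transcripts with a single exon (12.3%), against 3.83% of 18913 matched genes of the table. The median of the largest number of exons per gene was 4 against 8. Among the single-exon members 9 were called higher, 1 was lower and 4 were not called. Of all tested genes 10.3% were higher, and the share among all single-exon genes was not counted. The single-exon members not called were 4930544G11Rik, 4931417E11Rik, 4933415F23Rik and 4933416C03Rik, all among the abundant genes above. Of the members, 33 overlapped another gene of the table, and 13 of these members were called higher. The shares called higher were 49.2% of the tested members and 10.3% of all tested genes.

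The promoter sequences were taken from RefSeq (GRCm38.p6), which gave 106 of the 129 members and 15602 genes of the table. The 250 bases before each listed start were searched on both strands. A gene with several starts counted as holding a match if any of its windows did, and the number of starts was not taken into account. The searched letters were TGACGTCA, the full cAMP response element bound by CREM and CREB, its shorter form TGACGT, which the full element contains, GTTGCC, one arm of the X-box bound by RFX factors, CCAAT and TATAAA. No member held TGACGTCA, against 2.42% of all genes, and 4 held TGACGT (3.77%, against 9.18%). GTTGCC was found in 18 members, 10 of them among the 50 called higher that had an entry, against 12.8% of all genes. CCAAT was found in 35 of the 106 members against 39.6% of all genes, and TATAAA in 15 members (14.2%) against 1709 of the 15602 genes. The median GC content, from the first listed window of each gene, was 47.6% in the members and 56.8% in all genes. A match is a description of letters and says nothing of binding.

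Promoters are shown for the largest named rise, for 3 of the largest rises with a match, for the 1 member called higher that held TGACGT, and for the 1 called lower. Each is written 5′ to 3′ on the strand of the gene and ends before the gene span of the table, with matches to the searched letters on either strand in capitals.
4931408C20Rik: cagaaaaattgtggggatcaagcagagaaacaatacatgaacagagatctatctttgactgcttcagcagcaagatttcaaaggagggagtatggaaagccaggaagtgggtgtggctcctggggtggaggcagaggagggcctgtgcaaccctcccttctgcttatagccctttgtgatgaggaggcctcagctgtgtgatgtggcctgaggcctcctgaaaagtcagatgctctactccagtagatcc
4921530L21Rik: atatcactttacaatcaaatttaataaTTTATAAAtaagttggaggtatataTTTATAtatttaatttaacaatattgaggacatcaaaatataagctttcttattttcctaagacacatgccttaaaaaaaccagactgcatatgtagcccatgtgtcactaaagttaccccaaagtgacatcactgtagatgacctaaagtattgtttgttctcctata
4930407I10Rik: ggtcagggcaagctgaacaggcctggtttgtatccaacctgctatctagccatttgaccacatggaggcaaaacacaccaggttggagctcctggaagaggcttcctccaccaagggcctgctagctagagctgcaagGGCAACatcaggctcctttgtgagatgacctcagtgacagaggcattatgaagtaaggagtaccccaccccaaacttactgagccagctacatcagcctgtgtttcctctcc
4930567H17Rik: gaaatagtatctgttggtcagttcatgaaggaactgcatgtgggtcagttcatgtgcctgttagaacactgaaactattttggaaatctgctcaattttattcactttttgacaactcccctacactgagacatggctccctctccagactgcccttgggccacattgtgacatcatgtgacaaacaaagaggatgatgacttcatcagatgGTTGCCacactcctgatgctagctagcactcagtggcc
4930523C07Rik: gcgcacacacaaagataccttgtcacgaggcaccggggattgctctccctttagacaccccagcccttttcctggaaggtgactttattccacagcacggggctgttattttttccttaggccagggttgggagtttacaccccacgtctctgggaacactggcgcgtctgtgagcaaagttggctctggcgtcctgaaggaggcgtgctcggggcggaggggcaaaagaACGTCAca
4933412E24Rik: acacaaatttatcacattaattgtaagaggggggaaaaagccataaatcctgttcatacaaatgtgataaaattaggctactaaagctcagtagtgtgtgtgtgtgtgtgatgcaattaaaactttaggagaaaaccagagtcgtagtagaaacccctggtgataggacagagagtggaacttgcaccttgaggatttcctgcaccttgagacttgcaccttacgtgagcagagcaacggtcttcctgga
The windows are chr1:26687461-26687710 (minus strand), chr14:95881004-95881224 (plus), chr15:82058901-82059150 (plus), chrX:70394741-70394990 (minus), chr1:160044130-160044367 (plus) and chr15:60016619-60016868 (minus), in the same order. The first and the last hold no match, and the others hold TATAAA 3 times, GTTGCC once on the opposite strand, GTTGCC once on the same strand and TGACGT once on the opposite strand. 4930523C07Rik, the member with TGACGT, rose by 1.24 on the log2 scale (14.7 against 6.24 CPM on average, adjusted p = 0.000153 in edgeR).

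The rises were graded between libraries of 1 label. Among the 61 members called higher, replicate 1 labelled Tmem232-/- was the highest of its label for 50 and replicate 3 the lowest for 38. Among the libraries labelled Tmem232+/+, replicate 3 was the highest for 45 and replicate 2 the lowest for 45. The summed level of these members was 2128, 1842, 1585 and 1743 CPM in replicates 1 to 4 of the first label and 757, 647, 949 and 815 CPM for Tmem232+/+, without overlap. The 1572 other genes called higher had the same libraries at their ends, with replicate 3 labelled Tmem232+/+ the highest for 979. The grading was not limited to members that rose. Among the 63 tested members not called higher, replicate 1 labelled Tmem232-/- was the highest of its label for 36. Replicate 3 labelled Tmem232+/+ was the highest of its label for 34 of them. Prm1, a protamine of elongating spermatids, was at 122.1, 85.4, 44.3 and 131.8 CPM and at 4.86, 1.64, 7.54 and 4.18 CPM in the same libraries. It was thus highest in replicate 4 of the first label and not in replicate 1. In all listed elongating spermatid markers but Odf2, replicate 3 was lowest of the first label and highest of the second. For Odf2, replicate 4 was lowest of the first label, at 1587 CPM, and replicate 3 was lowest of the second, at 1230 CPM. Without replicate 3 labelled Tmem232+/+, 69 members were higher, 0 were lower at an adjusted p under 0.05 and the median log2 fold change was 0.56 (edgeR). The share called and the median over all tested genes without this library are not given here. The change is thus not read as particular to the members. That fit added 8 tested members and 4930402F06Rik, which passed the filter there, to those called higher, and 4930524N10Rik lost its call. The part of this library and of spermatid markers in the calls was not tested.

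**Figure D5:**
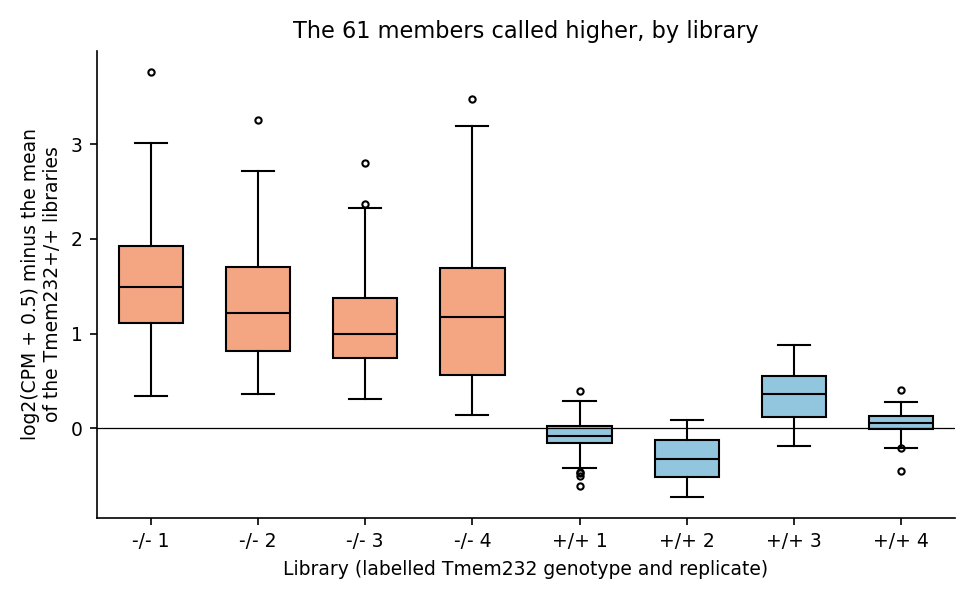
Level of the 61 members called higher in each library, as log2(CPM + 0.5) minus the mean of the 4 libraries labelled Tmem232+/+, with boxes between the quartiles, a line at the median and points beyond the whiskers. The medians run from 0.99 to 1.49 in the libraries labelled Tmem232-/- and from -0.32 to 0.36 in those labelled Tmem232+/+, where replicate 3 is highest.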

How the data were processed

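Whole testis RNA was sequenced as paired reads with a kit that does not mark strand. All 8 libraries, 1 per mouse by the stated numbers, were used, so p-values measure the spread between these samples. According to the submitters' processing notes, the genome was GRCm38.p6 and HISAT, Bowtie2, StringTie, featureCounts and DESeq2 were used, with versions not given in the sources used here. The table holds estimated counts per gene as the authors deposited them, without normalization. Some are not whole, and these were rounded for the tests. It also holds the authors' FPKM (a unit read from the values), which correct for length and library size. Fold changes and p-values of the authors' own comparison were left out. Totals of 15428421 to 16350871 counts per library limit the precision of low levels.

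The tests ran in R 4.3.3. In edgeR 4.0.16, genes were filtered with the default rule, scaled by TMM and compared by the quasi-likelihood test without covariates. Benjamini-Hochberg adjustment covered 15787 genes. CPM used unrounded counts and the same scaling, and exact permutation tests ran over 70 arrangements of CPM. The fits were tested on simulated data. Other steps used Python 3.11.15 (pandas 2.3.3, scipy 1.17.1, numpy 2.4.6). The alternatives were DESeq2 1.42.0, limma 3.58.1, other scalings and filters, FPKM as log2 of the value plus 1 or 0.1, a replicate block, and fits that omit 1 library.

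The members and lists were chosen with earlier results of these data known. The genes named were Tmem232, the 10 largest rises and up to 5 largest falls (adjusted p under 0.05, at least 1 CPM on average, no overlap), the 8 highest in FPKM in the libraries labelled Tmem232+/+, called members with no more than 3 counts per library in a label, and 8 members with a known role. Marker lists came from general knowledge. Overlaps with other genes left out 42 genes with spans over 3 Mb. Protein sequences were not used here.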

Additional observations from a re-analysis of the deposited data

Results flagged for a closer look

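In 4 of 58 groups of 4 libraries among the named genes, 1 library lay far from the others, with a gap of 0.832 to 0.862 of the range of its group. Chance gives about 1 in 20, or 2.9 groups. 4921507P07Rik had 9.37 CPM in replicate 3 labelled Tmem232+/+, above the other libraries of its label, and 4933427D14Rik (moonraker) had 71.1 CPM in the same library, below the others. 4933415F23Rik had 353.9 CPM in replicate 4 labelled Tmem232-/-, below the others, and 4931417E11Rik had 81.0 CPM in replicate 1 labelled Tmem232-/-, above the others. Of these genes 4921507P07Rik was called higher, and its labels did not overlap.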

How the results depend on the processing

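Of the 61 members called higher, 51 were called in all 17 alternative fits and none turned its sign, and 35 were also at least 2-fold higher in each. The number called higher was 54 to 69 when 1 library was left out. The shares of all tested genes called in the alternative fits are not given here, so these counts have no background beside them. The number called lower was 0 with no filter on low counts, 0 with the replicate number as a block, and 0 to 1 without 1 library. The number without overlap and lower was 2 with library size alone and 2 on FPKM, and 1 to 3 without 1 library (alternatives chosen after seeing the data). With the replicate block, 54 members were higher, 7 of the 61 calls were lost (among them 4930467E23Rik, 4931440F15Rik and 4933403O08Rik, adjusted p 0.059, 0.0515 and 0.0796), and the Tmem232 log2 fold change was 0.263 (adjusted p = 0.114). Same-numbered libraries correlated at -0.061, 0.072, -0.332 and -0.105 in their deviations. These values gave no sign of pairing by number but, with so few pairs, cannot settle it. Without 1 library the Tmem232 log2 fold change was 0.206 to 0.316. Among the named members, signs turned in those given next, none of which was called, and other uncalled members were not followed. With no filter, the log2 fold change was 0.013 for 4933402N22Rik, 0.008 for 4933416C03Rik and 0.016 for 4931417E11Rik. That of 4932438A13Rik was -0.03 with library size alone, -0.024 on FPKM plus 1 and -0.024 on FPKM plus 0.1. Without 1 library, 4933402N22Rik ranged from -0.138 to 0.178, 4933416C03Rik from -0.068 to 0.03 and 4931417E11Rik from -0.088 to 0.097. In the same fits 4932438A13Rik ranged from -0.076 to 0.106, 4930504O13Rik from -0.103 to 0.089 and 4931406C07Rik from -0.096 to 0.025. The cause was not tested. Depth limits members with few counts, such as 4933402N03Rik.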
